A study of Mus musculus with 15 samples.

Results

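Signal peptidase and the signal recognition particle act at the entry of the secretory pathway, and the data cover 10 of their genes. Sec11a, Sec11c, Spcs1, Spcs2 and Spcs3 encode signal peptidase, and Srp9, Srp14, Srp19, Srp68 and Srprb encode proteins of the signal recognition particle (SRP) and its receptor. The choice was made by gene name with earlier results of these data known, and every probe set that the platform's table pairs with 1 of these symbols alone was used. This gave 10 of the 16294 genes tested and 21 of 34945 probe sets with a single symbol, of which 10 belong to signal peptidase and 11 to SRP and its receptor. All 10 genes and all 21 probe sets passed the filter on dim signals, which asked for a log2 signal of 4 or more in at least 3 arrays.

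The measurements come from 15 Affymetrix Mouse Genome 430 2.0 arrays of primary hepatocytes of C57BL/6 mice, infected with adenoviruses in 5 groups of 3 arrays each. The groups named WT and S724A overexpressed wild-type IRE1a or its S724A form for 48 hours, and the EGFP group carried the fluorescent protein EGFP for the same time as control. The group named shIRE1a carried the knockdown virus shIRE1a#2 and the group named shCON the control virus shCON, both for 72 hours and both followed by 4 hours of glucagon, so no group separates infection from glucagon in that arm. IRE1a, the product of Ern1, is an endoplasmic reticulum (ER) membrane kinase and RNase that responds to unfolded proteins and splices Xbp1 mRNA. S724A replaces a serine with alanine, per its name. The series text calls the 3 experiments independent, but the labels do not say whether the 3 arrays of a group come from separate mice, so p-values measure the spread between these arrays, which may be partly technical. In RNA from whole cultures, fewer cells of a type and less RNA per cell cannot be told apart.

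SRP binds a signal sequence as it leaves the ribosome, slows translation, and carries the ribosome to its receptor on the ER membrane, where the chain enters the Sec61 channel. Signal peptidase sits beside the channel and cuts the signal sequence off. Hepatocytes secrete most plasma proteins, so both machines carry a heavy load in this cell type. Sec11a and Sec11c are alternative catalytic subunits of the peptidase, and each joins the same accessory subunits Spcs1, Spcs2 and Spcs3.

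Arrays spanned log2 signals of 1.91 to 14.8, with array medians of 5.69 to 5.83. Of 10 hepatocyte markers 9 had a single-symbol probe set, with mean signals of 8.91 to 14.3, Alb being the highest. Of 31 markers listed for 6 other liver and blood cell types, 28 had a single-symbol probe set and 25 were tested. None of the 25 passed limma's adjusted threshold in any of the 4 comparisons (1 or 2 had an unadjusted p under 0.05 in each). With replicate number added as a block, Cd68 and Krt19 passed in WT and Krt19 and Nkg7 in S724A cells against EGFP. Of the hepatocyte markers, Cyp2e1 fell by 2.27 in WT and by 1.76 in S724A cells on the log2 scale and Hnf4a rose by 0.74 in WT cells, and their part in the results below was not tested. Ern1 had log2 signals of 7.60, 7.44 and 7.51 in shIRE1a cells, against 8.89, 8.96 and 9.10 in shCON cells. It fell by 1.47 on the log2 scale with the knockdown virus (limma adjusted p = 0.00293), while averaging all Ern1 probe sets gave a fall by 0.56 (limma adjusted p = 0.0258). Only the brightest of the 5 Ern1 probe sets passed the threshold over all probe sets, and the other 4 had -0.65, -0.58, -0.43 and 0.35. Ern1 was not past the threshold in WT (0.12, adjusted p = 0.775) or S724A cells (0.46, adjusted p = 0.159; 0.0215 with the block), and since the sources do not say whether its probe sets match the viral insert, it does not check the labels of these 2 groups. Dnajb9, a known target of spliced Xbp1, rose by 1.34 in WT and 1.28 in S724A cells, the ER chaperone Hspa5 by 0.56 and 0.83 and Xbp1 by 0.63 and 0.52. With the knockdown virus Dnajb9, Hspa5 and Xbp1 changed by 0.15, -0.043 and -0.081 and did not pass (limma adjusted p = 0.875, 0.941 and 0.881). The Xbp1 call in S724A cells was lost without EGFP replicate 2 or S724A replicate 2.

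All 10 genes rose in WT cells against EGFP cells, by 1.35-fold (Srp14) to 3.27-fold (Sec11c) in the brightest probe set of each gene, and 9 of 10 rose in S724A cells. Among all genes tested, 5.08% rose in WT and 3.87% in S724A cells. In each of the 10 genes all 3 arrays of WT, and likewise all 3 of S724A, lay above all 3 of EGFP, a state found in 15.8% and 16.5% of all genes. The median change of the 5 signal peptidase genes was 1.30 in WT and 1.29 in S724A cells on the log2 scale, against 0.76 and 0.78 for the 5 SRP and receptor genes and 0.0031 and -0.013 for all genes. Both comparisons use the same EGFP arrays, so they are not independent of each other. In the knockdown arm none of the 10 genes changed past the threshold, against 0.233% of all genes.

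**Figure D1:**
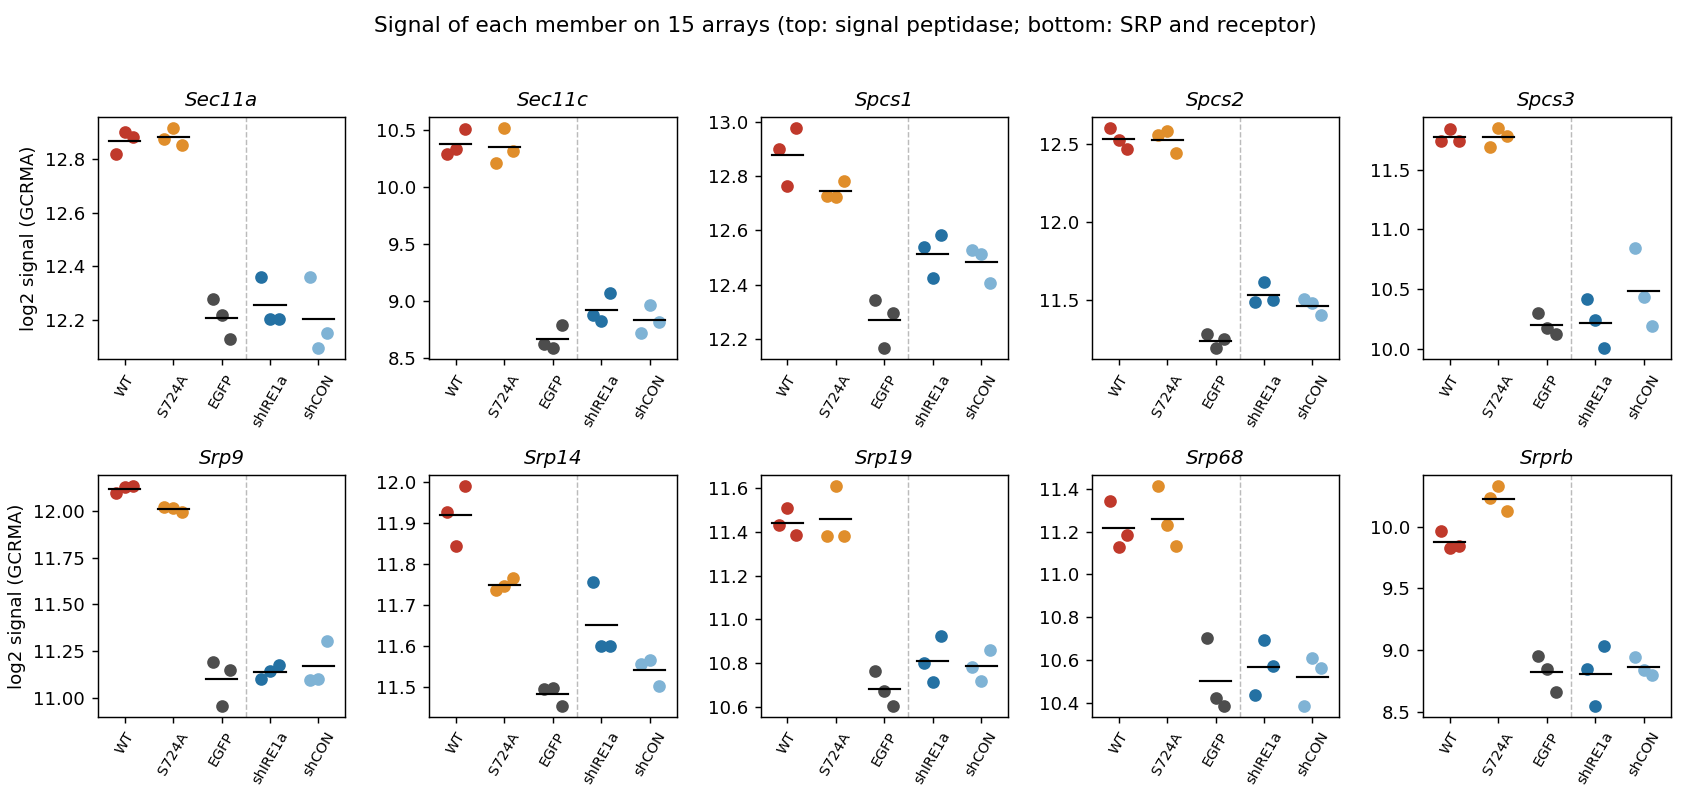
Log2 signal of each of the 10 genes on every array, with 1 panel per gene, points for the 3 arrays of a group, a bar for the group mean and a scale of its own. WT and S724A arrays stand above EGFP arrays in each panel, while shIRE1a and shCON arrays lie close together.

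The catalytic subunits come first. Sec11c had log2 signals of 10.29, 10.33 and 10.51 in WT cells and 10.22, 10.52 and 10.32 in S724A cells, against 8.63, 8.59 and 8.80 in EGFP cells. The lowest array with either form of IRE1a thus lay more than 1 log2 unit above the highest EGFP array. The rise was 1.71 ± 0.11 (SE) in WT and 1.68 ± 0.11 in S724A cells, which is 3.27-fold and 3.21-fold (limma adjusted p = 4.62e-07 and 4.61e-07). With the mean of both Sec11c probe sets, 1 of them dim, the rise was 1.01 in WT and 0.95 in S724A cells and remained past the threshold. Its paralogue Sec11a had 12.82, 12.90 and 12.88 in WT cells and 12.88, 12.92 and 12.85 in S724A cells, against 12.28, 12.22 and 12.13 in EGFP cells. These groups did not overlap either, but the rise was smaller, at 0.66 ± 0.094 in WT and 0.67 ± 0.094 in S724A cells (1.58-fold and 1.60-fold, limma adjusted p = 0.000486 and 0.000477). With the mean of both Sec11a probe sets in place of the brighter one, the WT rise was 0.35 with limma adjusted p = 0.0712. The second Sec11a probe set averaged 4.19 over the 15 arrays, near the filter.

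Setting the paralogues against each other within each array gives a difference that does not depend on a shift of the whole array. Sec11c minus Sec11a was higher by 1.05 in WT and by 1.01 in S724A cells than in EGFP cells, a 2.07-fold and 2.01-fold larger change of Sec11c. Each of the 3 WT and 3 S724A arrays lay above all 3 EGFP arrays, and the exact permutation test gave p = 0.1, two-sided, which is the smallest that 3 arrays against 3 can give. With the mean of all probe sets of each gene, including the dim ones, the difference was 0.66 in WT and 0.51 in S724A cells. In the knockdown arm it was 0.037 higher in shIRE1a than in shCON cells (exact permutation p = 1), and it was 0.041 higher in WT than in S724A cells (exact permutation p = 0.7).

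The accessory subunits did not all move by the same amount. Spcs3, a subunit that the catalytic activity needs in yeast, had 11.74, 11.84 and 11.74 in WT cells and 11.69, 11.85 and 11.78 in S724A cells, against 10.30, 10.18 and 10.12 in EGFP cells. Its rise was 1.57 ± 0.15 in WT and 1.57 ± 0.15 in S724A cells (2.97-fold in both, limma adjusted p = 1.03e-05 and 1.04e-05). Spcs2, which lies close to the Sec61 channel, had 12.60, 12.53 and 12.47 in WT cells and 12.56, 12.59 and 12.44 in S724A cells, against 11.28, 11.19 and 11.25 in EGFP cells. No array of EGFP came within 1 log2 unit of the arrays with IRE1a. The Spcs2 rise was 1.30 ± 0.086 in WT and 1.29 ± 0.086 in S724A cells (2.45-fold in both, limma adjusted p = 4.62e-07 and 4.03e-07). Spcs1, the smallest subunit and one that yeast can live without, had 12.90, 12.76 and 12.98 in WT cells and 12.73, 12.72 and 12.78 in S724A cells, against 12.34, 12.17 and 12.30 in EGFP cells. Its brightest probe set rose by 0.61 ± 0.092 in WT and 0.47 ± 0.092 in S724A cells (1.53-fold and 1.39-fold, limma adjusted p = 0.000781 and 0.0061). A second bright Spcs1 probe set rose by 0.79 in WT and 0.63 in S724A cells, so the order of Spcs1 and Sec11a depends on the probe set, and with the mean of probe sets Spcs1 changed by 0.83 and 0.60, against 0.35 and 0.43 for Sec11a. By the brightest probe sets Sec11c, Spcs3 and Spcs2 had changes above 1 log2 unit and Sec11a and Spcs1 below it. The probe sets that stand for Sec11a and Spcs1 were above 12 on every array, and the part of the signal range in the size of their changes was not tested.

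Within SRP, Srp9 and Srp14 form the dimer that slows translation. Srp9 had 12.09, 12.13 and 12.13 in WT cells and 12.02, 12.02 and 11.99 in S724A cells, against 11.20, 10.96 and 11.15 in EGFP cells. It rose by 1.02 ± 0.092 in WT and 0.91 ± 0.092 in S724A cells (2.02-fold and 1.88-fold, limma adjusted p = 8.3e-06 and 2.27e-05). Its partner Srp14 had 11.93, 11.84 and 11.99 in WT cells and 11.74, 11.75 and 11.77 in S724A cells, against 11.50, 11.50 and 11.45 in EGFP cells. The rise of Srp14 in WT cells was 0.44 ± 0.083 (1.35-fold, limma adjusted p = 0.00439), the smallest of the 10 by the brightest probe sets. In S724A cells Srp14 was not past the threshold, with a change of 0.27 ± 0.083 and limma adjusted p = 0.0721 (0.0604 with the replicate block), although all 3 arrays were above EGFP. Its adjusted p in S724A cells ran from 0.0113 with the mean of its probe sets and 0.0356 with trended and robust variance to 0.177 over the alternatives.

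Srp19 and Srp68 belong to the domain of SRP that recognises the signal sequence, where Srp19 helps the signal-binding subunit Srp54 onto the RNA. Srp19 had 11.43, 11.51 and 11.39 in WT cells and 11.38, 11.61 and 11.38 in S724A cells, against 10.76, 10.67 and 10.60 in EGFP cells, a rise of 0.76 ± 0.098 and 0.78 ± 0.098 (limma adjusted p = 0.000206 and 0.000188). Srp68, which binds the SRP RNA together with Srp72, had 11.34, 11.13 and 11.18 in WT cells and 11.41, 11.23 and 11.13 in S724A cells, against 10.70, 10.42 and 10.39 in EGFP cells, a rise of 0.72 ± 0.12 and 0.76 ± 0.12 (limma adjusted p = 0.00173 and 0.00126). Neither gene's groups overlapped with EGFP, and both rose by 1.64-fold to 1.71-fold. Srprb, the membrane-anchored GTPase subunit of the SRP receptor, had 9.96, 9.83 and 9.85 in WT cells and 10.23, 10.33 and 10.12 in S724A cells, against 8.95, 8.85 and 8.66 in EGFP cells. By the brightest probe sets it had the largest change of the SRP and receptor genes, close to that of Srp9 in WT cells. It rose by 1.06 ± 0.12 in WT and 1.41 ± 0.12 in S724A cells (2.08-fold and 2.66-fold, limma adjusted p = 8.27e-05 and 5.41e-06). Its other probe sets rose by 0.94 and 1.08 in WT and by 1.00 and 1.40 in S724A cells. The mean of its probe sets gave 1.03 in WT and 1.27 in S724A cells.

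**Figure D2:**
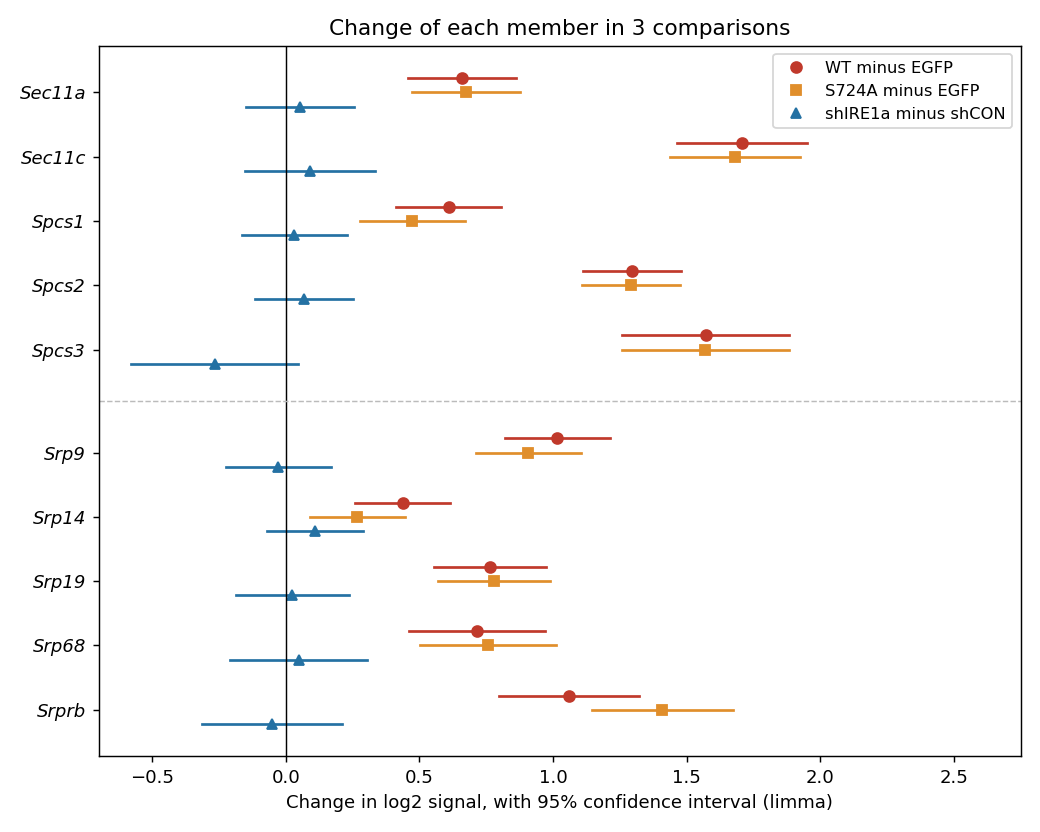
Change in log2 signal of each gene with its 95% confidence interval from limma, for WT minus EGFP, S724A minus EGFP and shIRE1a minus shCON, with signal peptidase genes above the dashed line. The intervals of WT and S724A lie to the right of 0 for all 10 genes, with Srp14 in S724A cells closest to it, and those of the knockdown cross 0.

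Promoter windows were available from RefSeq on GRCm38.p6, from 250 bases before to 50 bases after the start of the gene, for Sec11a, Spcs1, Spcs2, Srp9, Srp14 and Srprb, and Sec11c, Spcs3, Srp19 and Srp68 were not matched. The letters ACGTG, searched on both strands, are the core shared by sites that XBP1 and ATF6 bind. They stood in 3 of the 6 windows, Spcs1, Srp14 and Srprb, and in 19.6% of 32851 mouse promoter windows of the same length. These 3 are shown with ACGTG, or CACGT where it lies on the opposite strand, in capitals. Spcs2 is shown as a window without ACGTG, picked because it rose more than any of these 3 except Srprb in S724A cells. Sec11a and Srp9 hold no ACGTG either and are not shown. A link between these letters and the size of a change was not tested.
Spcs1 (chr14:31001617-31001916, minus strand): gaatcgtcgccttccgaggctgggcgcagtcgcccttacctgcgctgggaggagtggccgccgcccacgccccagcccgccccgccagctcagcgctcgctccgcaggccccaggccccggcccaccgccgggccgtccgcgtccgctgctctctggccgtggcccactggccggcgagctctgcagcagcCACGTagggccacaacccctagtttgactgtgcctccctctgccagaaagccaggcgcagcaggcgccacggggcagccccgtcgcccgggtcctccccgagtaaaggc
Srp14 (chr2:118479647-118479946, minus strand): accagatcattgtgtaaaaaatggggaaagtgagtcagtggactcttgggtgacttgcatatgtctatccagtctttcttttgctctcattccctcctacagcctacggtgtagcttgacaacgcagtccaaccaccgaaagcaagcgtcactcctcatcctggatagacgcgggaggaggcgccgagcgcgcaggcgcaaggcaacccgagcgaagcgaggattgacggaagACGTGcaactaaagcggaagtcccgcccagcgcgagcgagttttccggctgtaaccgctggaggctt
Srprb (chr9:103202016-103202315, minus strand): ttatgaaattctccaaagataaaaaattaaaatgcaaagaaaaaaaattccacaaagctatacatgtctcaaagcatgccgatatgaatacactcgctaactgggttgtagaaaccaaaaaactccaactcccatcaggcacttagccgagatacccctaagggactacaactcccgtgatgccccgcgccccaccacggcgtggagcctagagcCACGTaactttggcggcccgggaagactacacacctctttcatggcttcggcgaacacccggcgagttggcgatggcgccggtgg
Spcs2 (chr7:99858834-99859133, minus strand): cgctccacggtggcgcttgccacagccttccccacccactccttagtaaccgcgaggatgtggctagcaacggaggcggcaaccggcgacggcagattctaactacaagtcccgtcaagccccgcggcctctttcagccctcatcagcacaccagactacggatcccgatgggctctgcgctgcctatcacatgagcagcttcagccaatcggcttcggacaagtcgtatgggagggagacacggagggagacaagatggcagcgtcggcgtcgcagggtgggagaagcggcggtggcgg
The match began at -59 from the start in Spcs1 and at -35 in Srprb, on the opposite strand in both, where it overlaps a CCACG, and at -17 in Srp14 on the strand of the gene. CCACG alone stood in 5 of 6 windows and in 32.8% of all. The longer ER stress response elements ERSE and ERSE-II, which contain CCACG, the letters TGACGTGG, which contain ACGTG, and the cyclic AMP response element TGACGTCA were in 0 of the 6 windows. They stood in 0.119%, 0.0365%, 0.676% and 1.79% of all windows. A match describes these letters and is not evidence of a bound site.

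Over all single-symbol probe sets, 19 of the members' 21 rose in WT cells, 8 of 10 for signal peptidase and 11 of 11 for SRP and its receptor, against 3.77% of the 30046 probe sets tested. In S724A cells 16 of 21 rose, 7 of 10 and 9 of 11, against 3.13%. The 2 that did not pass in WT cells were dim, a Sec11a probe set with a mean of 4.19 and a change of 0.04 and a Sec11c probe set with a mean of 4.28 and a change of 0.31. The other Spcs2 probe set changed by 1.47 in both groups, and the other Srp9 probe set by 0.97 in WT and 0.85 in S724A cells, close to the brighter ones. For Srp14 the 4 probe sets ranged in S724A cells from 0.27 to 0.49, and 2 of them passed, with limma adjusted p = 0.0121 and 0.0124. Of these 4, 3 carry a suffix that marks possible matches to other sequences, and 1 of the 3 passed. The brightest, which stands for Srp14 in the gene results, is also 1 of the 3. The probe set without that suffix changed by 0.49 in S724A cells and passed. One more Spcs1 probe set, with a mean of 5.33, had a change of 0.70 in S724A cells and did not pass (limma adjusted p = 0.148).

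**Figure D3:**
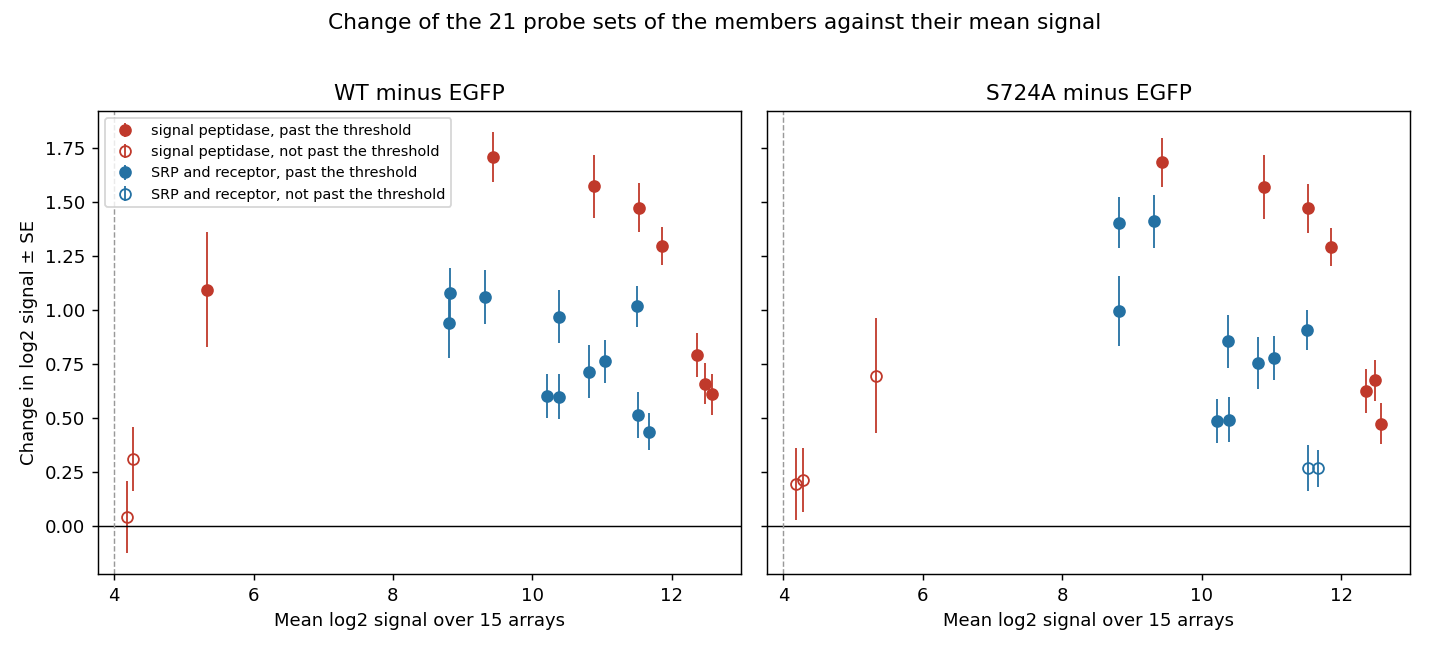
Change in log2 signal of each of the 21 probe sets against its mean log2 signal over 15 arrays, for WT minus EGFP and S724A minus EGFP, with bars for limma's SE and filled points past the threshold. The probe sets with mean signals near 4 did not pass, and in the brightest, from about 12 upward, changes stayed below those of Sec11c, Spcs2 and Spcs3.

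Signal peptidase was set against SRP and its receptor within each array, on values centred per gene over the 15 arrays. The mean of the 5 signal peptidase genes was 0.64 ± 0.024 in WT and 0.61 ± 0.055 in S724A cells, against -0.53 ± 0.049 in EGFP cells (SD, n = 3 each). For the 5 SRP and receptor genes it was 0.45 ± 0.033 in WT and 0.47 ± 0.055 in S724A cells, against -0.35 ± 0.091 in EGFP cells. Signal peptidase minus SRP was thus 0.19 ± 0.046 in WT and 0.14 ± 0.052 in S724A cells, against -0.18 ± 0.062 in EGFP cells. The change of signal peptidase was larger than that of SRP and its receptor by 0.37 in WT and by 0.32 in S724A cells, which exceeds the SD of each group. With the mean of all probe sets of a gene it was 0.22 and 0.17, and no p is given since the score joins members chosen by name. The changes of single genes overlap between the complexes, since Srp9 and Srprb rose more than Sec11a and Spcs1.

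**Figure D4:**
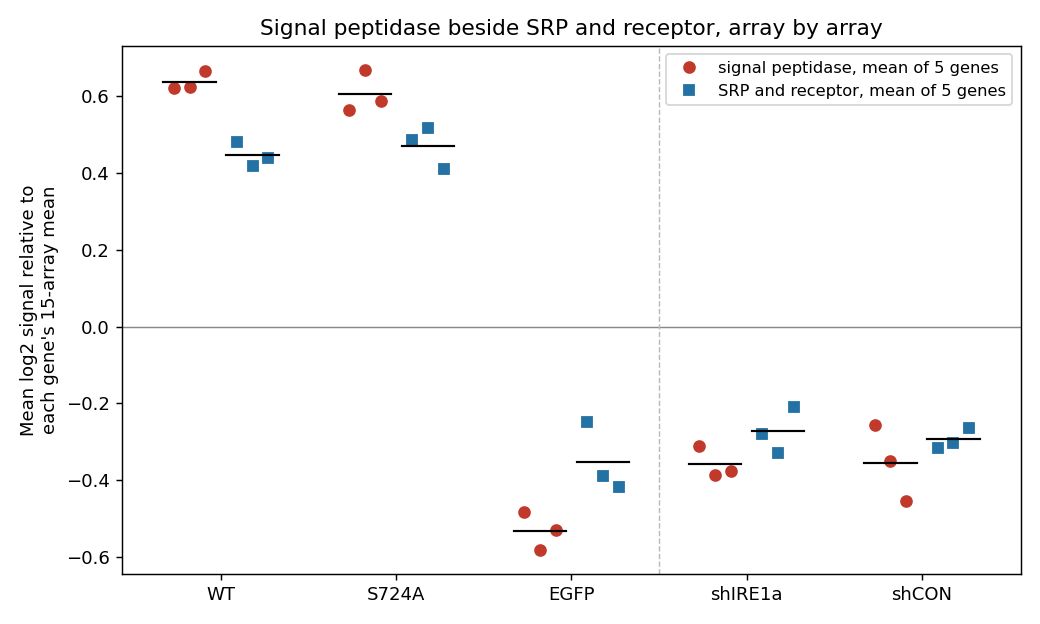
Mean log2 signal of the 5 signal peptidase genes (circles) and of the 5 SRP and receptor genes (squares) on each array, relative to each gene's mean over 15 arrays, with a bar at each group mean. Circles lie above squares in WT and S724A cells and below them in EGFP cells, and the 2 overlap in shIRE1a and shCON cells.

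Wild-type IRE1a and S724A were compared directly. None of the 10 genes passed the threshold in limma, with or without the replicate block, as for all genes tested without it (0%), and 997 genes had an unadjusted p under 0.05, among them 1 of the 10, Srprb. Srprb was lower in WT than in S724A cells in every array, with a difference of -0.35 (95% confidence interval -0.61 to -0.087, limma adjusted p = 0.801). The other probe sets of Srprb had differences of -0.32, with no overlap of the arrays, and -0.057, with overlap, and the mean of its probe sets gave -0.24. Srp9 and Srp14 were higher in every WT array than in every S724A array, by 0.11 and 0.17, and did not pass. Non-overlapping arrays thus occurred in 3 of 10 genes, against 13.3% of all genes. The medians of the differences were 0.0024 for signal peptidase and -0.015 for SRP and its receptor.

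The knockdown was compared with its own control virus under glucagon. None of the 10 genes passed the threshold (limma; 0 of 10 had an unadjusted p under 0.05, and 0 passed with the replicate block), while 0.233% of all genes did. Spcs3 had 10.42, 10.24 and 10.01 in shIRE1a cells and 10.85, 10.43 and 10.19 in shCON cells, the widest spread among the 10. Its difference of -0.27 had a 95% confidence interval of -0.58 to 0.046 and limma adjusted p = 0.68, and the groups overlapped, although within pairs of the same replicate number shIRE1a was lower in 3 of 3. With the block its limma adjusted p was 0.238. Sec11c had 8.88, 8.83 and 9.07 in shIRE1a cells and 8.73, 8.97 and 8.82 in shCON cells, which also overlap. Srp14 had 11.76, 11.60 and 11.60 in shIRE1a cells, all above the 11.56, 11.57 and 11.50 in shCON cells, by 0.11. Such non-overlap in 1 of 10 genes stands beside 11.5% of all genes. The 95% intervals of the 10 differences lay between -0.58 and 0.33, and a true difference within a gene's own interval remains compatible with these arrays.

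Across the 5 groups, WT and S724A held the top 2 mean levels in all 10 genes. In 9 of 10 every WT and S724A array lay above every other array. Srp14 was the exception, with a lowest value of 11.74 in these groups against 11.76 for the highest shIRE1a array. The share of all genes with such an order was not computed, so these counts have no background beside them. They also reach across the arms, since shIRE1a and shCON differ from WT, S724A and EGFP in virus, time and glucagon. No test was run across the arms.

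The wider targeting and translocation pathway was read from a list of 21 symbols, of which 16 had a single-symbol probe set and were tested. Srpr and Srpra in this list name the same gene. In WT cells 11 of 16 rose and 1 fell, against 5.08% and 2.59% of all genes, and in S724A cells 9 rose and 0 fell, against 3.87% and 2.25%. The list's median change was 0.75 in WT and 0.56 in S724A cells. Sec61b, the small subunit of the channel, changed most, by 2.15 ± 0.12 in WT and 2.03 ± 0.12 in S724A cells (limma adjusted p = 1.24e-07 and 1.71e-07). The channel's pore subunit Sec61a1 rose by 1.16 in WT and 1.37 in S724A cells, while its paralogue Sec61a2 fell by 0.51 in WT cells (limma adjusted p = 0.00741). Of the translocon-associated proteins, Ssr2, Ssr3 and Ssr4 rose by 1.39, 1.10 and 0.75 in WT and by 1.32, 1.11 and 0.67 in S724A cells. The Ssr4 call in S724A cells was lost with the mean of its probe sets (limma adjusted p = 0.0538). Tram1, a membrane protein next to the channel, rose by 1.25 and 1.33, and Srpr, the receptor's partner subunit of Srprb, by 0.76 and 0.90. With the mean of probe sets Srpr rose by 0.46 in WT and 0.49 in S724A cells and Ssr4 by 0.36 in WT cells.

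The remaining calls in this list were less firm. Srp72, the partner of Srp68, rose by 0.66 in WT and 0.48 in S724A cells, but in S724A cells the call was lost after quantile normalisation and when any 1 of 5 arrays was left out, all except S724A replicate 1. Ssr1, Srp54b and Sec62 rose in WT cells by 1.00, 0.74 and 0.51, limma adjusted p = 0.022, 0.034 and 0.0205. Each lost the call without EGFP replicate 2 or 3 and in a fit of the 6 arrays alone, Ssr1 and Srp54b also without EGFP replicate 1, Srp54b and Sec62 also without WT replicate 3, and Sec62 also without WT replicate 2. Averaging probe sets in WT cells gave 0.28 for Sec62, which did not pass. The same setting gave 1.11 for Ssr1 and 0.74 for Srp54b, which passed (limma adjusted p = 0.000118 and 0.0349). In S724A cells these 3 had 0.46, 0.41 and 0.34 and did not pass. Sec63, which assists the channel, rose in S724A cells by 0.63, a call lost without any 1 of 5 arrays, all except EGFP replicate 1. In WT cells it had 0.37 (limma adjusted p = 0.165, and 0.0499 with the block). Naca and Btf3, the nascent-chain-associated complex that binds ribosomes in the cytosol, had 0.01 and 0.07 in WT and 0.00 and 0.02 in S724A cells. In the knockdown 0 of the 16 passed (limma, and 0 with the block), against 0.233% of all genes without the block. An unadjusted p under 0.05 was found in 1 of the 16, against 1260 of the 16294 genes tested. This was Srp72, at -0.44 (limma adjusted p = 0.288). The list's median change there was -0.15, against 0.021 for all genes. Of the 16 changes 1 was above 0, against 8942 of the 16294 genes tested.

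The GET pathway and the ER membrane complex insert membrane proteins by other routes, and 14 genes from a list of 19 symbols were tested. The list names some genes by an older and a newer symbol (Wrb and Get1, Asna1 and Get3, Ubl4 and Ubl4a), so it holds fewer genes than symbols. In WT cells 1 of 14 rose and 0 fell, near the 5.08% and 2.59% of all genes. The 1 was Emc9, a subunit of the ER membrane complex, at 0.41 ± 0.11 (limma adjusted p = 0.0372), a call lost without any 1 of 5 arrays, all except EGFP replicate 2, and also after quantile normalisation, in a fit of the 6 arrays alone and with trended and robust variance. With the block Get1, a GET receptor subunit, also fell in WT cells (-0.36, limma adjusted p = 0.0456). In S724A cells 0 of 14 passed (limma), where 3.87% of all genes rose and 2.25% fell. An unadjusted p under 0.05 was found in 4 of the 14, against 3912 of the 16294 genes tested. Emc8 passed with the block (0.38, limma adjusted p = 0.025). The list's median was -0.0091 in WT and 0.045 in S724A cells.

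**Figure D5:**
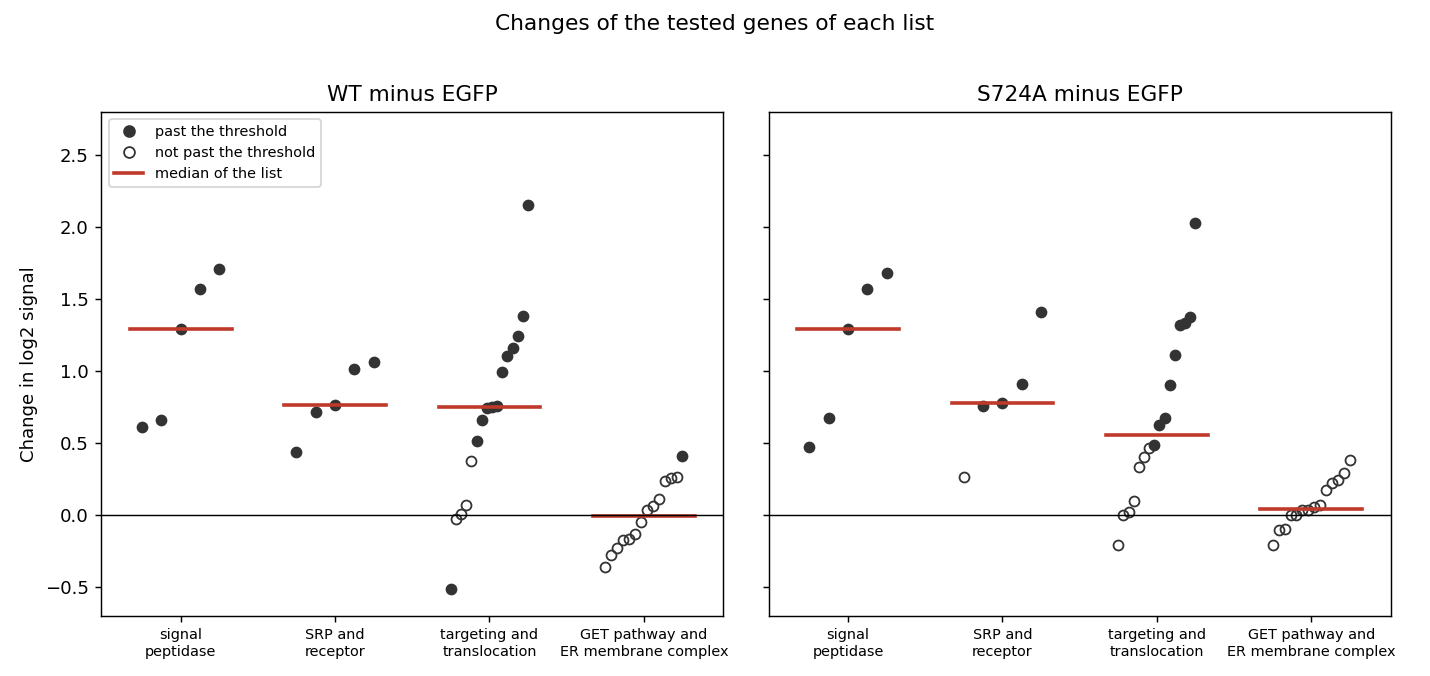
Change in log2 signal of every tested gene of 4 lists in WT minus EGFP and S724A minus EGFP, with filled points past the threshold and a line at each list's median. Signal peptidase has the highest median in both panels, and the GET and ER membrane complex list lies around 0.

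The 5 genes outside the 10 whose profile over the 15 arrays was most like the mean of the signal peptidase genes were Ostc, Trabd, Fkbp11, Sec61b and Cdk5rap3, with Pearson r of 0.992, 0.992, 0.992, 0.991 and 0.990. Ostc is a subunit of the oligosaccharyltransferase, Fkbp11 an ER prolyl isomerase and Cdk5rap3 part of the UFM1 ligase complex. The 15 arrays share the group differences, so r describes the split of WT and S724A from the other groups. The 10 genes themselves had r of 0.875 (Srp14) to 0.987 (Spcs2), with each signal peptidase gene left out of the mean it was set against.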

How the data were processed

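RNA was measured on 15 one-colour arrays, 1 per sample. Per the submitters' processing notes, the authors used GCRMA, which corrects background by probe sequence, normalises by quantiles and summarises probe sets; no version is stated there. By their range the deposited values are on a log2 scale, which the labels do not name. Of 45101 probe sets, 64 controls, 932 with several symbols and 9160 with none were left out of the gene tests. The single-symbol probe set with the highest mean over 15 arrays stood for each of 18193 genes, and 16294 passed the filter.

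A linear model with 5 group means covered all 15 arrays, in R 4.3.3 with limma 3.58.1 (lmFit, eBayes, 10 residual degrees of freedom), two-sided, with Benjamini-Hochberg adjustment over all genes or all probe sets tested and a threshold of 0.05. SEs are limma's. The median half-width of a 95% interval was 0.30, which the number of arrays limits. The genes and lists were chosen with earlier results of these data known. Other genes named are cell type markers, 4 checks, list members past the threshold in any comparison and the 5 closest profiles; Alb, Cyp2e1, Hnf4a, Cd68, Krt19, Nkg7, Emc8, Get1, Naca and Btf3 were named after their values were seen. The labels do not say whether equal replicate numbers mark the same experiment. Residuals of same-number arrays correlated by 0.20 to 0.69 in the 12 pairs within an arm. In the 18 same-number pairs across the arms they correlated by -0.085 to 0.23. A replicate block within each arm was therefore fitted as an alternative. The code was tested on simulated data. Alternatives were other scalings, filters, floors, variance priors, probe set rules, the block and each replicate left out.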

Additional observations from a re-analysis of the deposited data

Results flagged for a closer look

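Probe sets that match several symbols were not used for the genes above, and 2 of them, both paired with Srp54a, Srp54b and Srp54c, the signal-binding subunit of SRP, were above the EGFP level. Their changes in WT cells were 0.744 and 0.775 on the log2 scale (limma adjusted p = 0.000619 and 0.000641), and in S724A cells 0.700 and 0.720 (limma adjusted p = 0.00108 and 0.00125). The first had a mean log2 signal of 12.1 in WT cells, against 11.4 in EGFP cells. The 3 copies cannot be told apart in these probe sets. A further probe set, paired with both Trf and Srprb, had changes of -0.18 in WT and 0.02 in S724A cells. It did not pass the threshold, unlike the probe sets of Srprb alone. Its mean log2 signal was 13.5 in WT and 13.7 in EGFP cells, where the brightest probe set of Srprb alone had 9.88 and 8.82. The share of Trf and of Srprb in its signal was not tested. Groups of 3 arrays were not tested for single outlying arrays.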

How the results depend on the processing

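All 10 genes rose in WT cells under each of the settings run except the mean of all probe sets of a gene (9, without Sec11a), and 9 of 10 in S724A cells except with that mean and with trended and robust variance (10 in both, with Srp14). Leaving out any 1 array changed none of these counts. In WT minus S724A and in the knockdown 0 of 10 passed under every setting. With the replicate number as a block, 19 and 16 of the 21 probe sets still rose in WT and S724A cells, while the genes called over all tested became 2539 in WT, 2347 in S724A, 2 in WT minus S724A (2 also with trended and robust variance) and 200 in the knockdown, where without it they were 1250, 997, 0 and 38; the block changed no call among the 10 genes. Median centring gave 23 genes and a fit of the 6 arrays alone 5 genes in the knockdown. After quantile normalisation 758 genes rose and 610 fell in WT cells, against 828 and 422 as deposited, and 459 rose and 491 fell in S724A cells, against 631 and 366. With each replicate left out in turn the genes called ran from 715 to 1108 in WT (715 without EGFP replicate 2), from 485 to 979 in S724A (485 and 642 without EGFP replicates 2 and 3, 538 and 596 without S724A replicates 2 and 3) and from 13 to 75 in the knockdown. The signal peptidase minus SRP difference was 0.22 in WT and 0.17 in S724A cells with the mean of probe sets. Differences near 0 changed sign in some settings. In WT minus S724A, Spcs2 was -0.020 and Spcs3 -0.017 after quantile normalisation, and -0.0032 and -0.0044 after median centring. In the knockdown Srprb was 0.0065 after quantile normalisation, and with the mean of probe sets Spcs1 was -0.097 and Sec11c minus Sec11a -0.011. With a replicate left out, WT minus S724A ran from -0.031 to 0.0094 in Sec11a, from -0.043 to 0.11 in Sec11c, from -0.041 to 0.035 in Spcs2, from -0.041 to 0.038 in Spcs3, from -0.054 to 0.062 in Srp19, from -0.10 to 0.037 in Srp68 and from -0.025 to 0.11 in Sec11c minus Sec11a. In the knockdown it ran from -0.00028 to 0.13 in Sec11a, from -0.0052 to 0.078 in Spcs1, from -0.065 to 0.040 in Srp9, from -0.030 to 0.075 in Srp19, from -0.018 to 0.11 in Srp68, from -0.16 to 0.079 in Srprb and from -0.098 to 0.16 in Sec11c minus Sec11a. The cause of these shifts was not tested. Signals near the filter of 4, as in the second probe sets of Sec11a and Sec11c, limit what can be seen.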
